A study of Mus musculus with 4 samples.

Results

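The smooth muscle contractile program was examined in bulk eye tissue through 10 genes, namely Acta2, Actg2, Myh11, Tagln, Cnn1, Des, Smtn, Myocd, Lmod1 and Rgs5. They were grouped as genes of the muscle of iris, ciliary body and vessel wall, but no muscle was measured on its own. Members were all probe sets whose platform annotation gave exactly 1 gene symbol that was one of these. This found 18 of the 45101 probe sets, and each of the 10 genes, out of 18193 named on the array, had at least 1. Of the 18 probe sets, 14 were bright enough to be tested and each gene kept at least 1 of them. No probe set with several symbols contained a member (0).

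The study asked how retinal gene expression differs when the protein myocilin is abundant around the retina. Total RNA of mouse eye tissue was hybridised to 4 one-colour oligonucleotide arrays. The transgenic animals, with myocilin in their aqueous humor, which fills the front of the eye, gave 2 arrays. Control animals gave 2 arrays, of which the second is called a technical replicate of the first, so they were counted as 1 control sample. The sources used here do not name the promoter of the transgene, the strain, the age or any pooling of animals. The labels do not state that each transgenic array stands for its own animal, so the spread behind every p-value may be purely technical.

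Smooth muscle cells contract when calcium activates a kinase that phosphorylates the light chain of myosin, which then pulls on actin filaments. Many of the contractile genes are switched on together by serum response factor, a DNA-binding protein that recognises a short sequence called the CArG box, with its cofactor myocardin. In the eye, such cells form the sphincter of the iris and the ciliary muscle and wrap the vessels, where they and their neighbours, the pericytes, are called mural cells. The dilator of the iris is a contractile epithelium that uses many of the same genes.

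The promoters of 2 members are shown because their brightest probe sets lay on opposite sides of control, Acta2 above and Rgs5 below. They run from 250 bases before to 50 after the gene's start in RefSeq (GRCm38.p6), 5′ to 3′ on the gene's strand. Acta2 lies at chr19:34255324-34255623 on the minus strand and Rgs5 at chr1:169655251-169655550 on the plus strand. Capitals mark the letters CCNNNNNNGG with at least 5 of the 6 inner letters A or T, a relaxed form of the CArG box that reads the same way on both strands.
Acta2: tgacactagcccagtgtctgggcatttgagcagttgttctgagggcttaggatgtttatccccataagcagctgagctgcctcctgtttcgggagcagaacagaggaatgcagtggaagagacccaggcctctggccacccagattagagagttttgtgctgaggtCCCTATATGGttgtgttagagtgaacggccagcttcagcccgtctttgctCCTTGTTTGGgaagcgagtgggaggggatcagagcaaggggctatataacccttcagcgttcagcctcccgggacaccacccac
Rgs5: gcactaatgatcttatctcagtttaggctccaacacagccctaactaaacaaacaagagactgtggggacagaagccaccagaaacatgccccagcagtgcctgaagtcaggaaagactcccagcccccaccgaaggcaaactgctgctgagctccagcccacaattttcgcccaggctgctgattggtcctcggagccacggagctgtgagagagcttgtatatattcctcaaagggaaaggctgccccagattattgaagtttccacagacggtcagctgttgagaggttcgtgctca
Acta2 held 2 such boxes, which began 84 and 34 bases before the start, and Rgs5 held none in this window (0). Of all 32851 promoter windows of the same 300-base length, 9.98% held at least 1 box and 0.822% held 2 or more. RefSeq windows were matched for 6 of the 10 members. Of these, Acta2 was the 1 with a box, and the windows of Cnn1, Des, Smtn, Lmod1 and Rgs5 were without one. Windows of Actg2, Myh11, Tagln and Myocd were not used here. With all 6 inner letters A or T, 0 of the 6 members matched, against 1.63% of all windows.

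Across the series, each array had a mean signal of 150 after trimming 2% at either end, a level used below as a landmark. Tested probe sets numbered 27022. Between arrays of 1 group the log2 difference had an SD of 0.32 for the transgenic pair and 0.30 for the control pair. All 4 arrays are labelled retina, yet of 8 rod photoreceptor markers with a probe set none averaged over 150 (0), and 5 of the 8 were too dim to test. The 7 pigment cell, 7 fibroblast and 5 surface epithelium markers all did, as did 13 of 14 skeletal muscle markers. In bulk tissue such as this, fewer cells of a type and less RNA per cell cannot be told apart.

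No member probe set passed the test between transgenic and control samples. Tagln and the brightest Acta2 probe set were higher on both transgenic arrays, by 1.20-fold and 1.15-fold, while Rgs5 was lower on all 4 of its probe sets, at 0.758-fold on the brightest. The remaining 7 genes had overlapping arrays on every tested probe set. In limma, 0 of 14 member probe sets had an adjusted p under 0.05, against 0.0777% of all probe sets tested. At an unadjusted p under 0.05 there were 2 of 14, or 14.3%, those of Tagln and Rgs5, against 7.06% of all probe sets tested. Changes are differences of log2(signal + 16), and folds are computed on that scale, where dim probe sets show less than their true change.

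**Figure D1:**
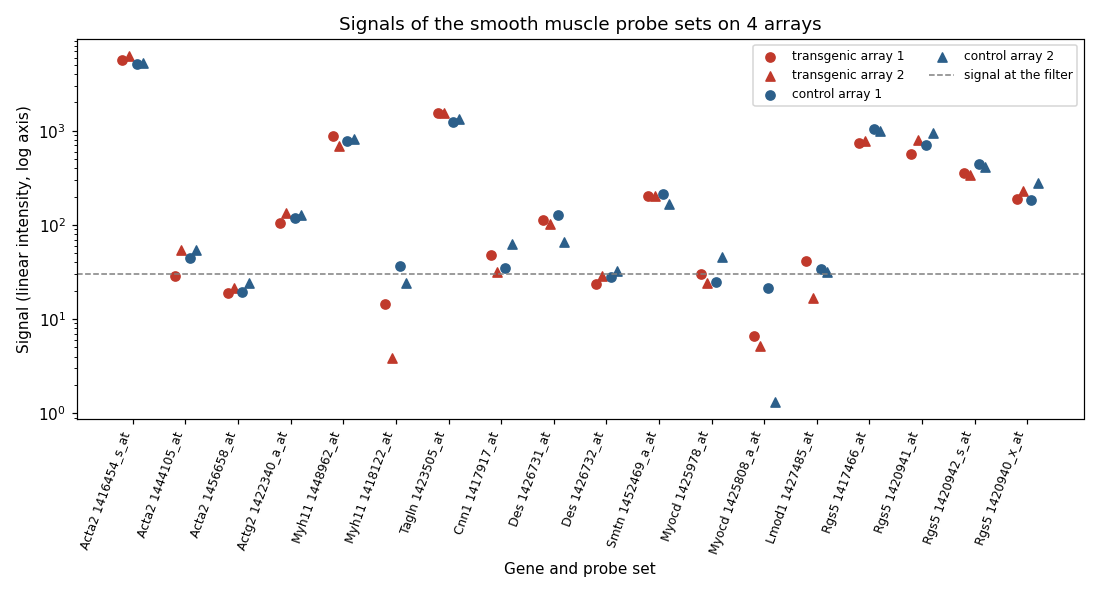
Signal (linear intensity on a log axis) of all 18 member probe sets, with transgenic arrays in red and control arrays in blue, array 1 as circles and array 2 as triangles; the dashed line is the signal of 30.0 that corresponds to the filter on mean log2 level. For Tagln and the first Acta2 probe set both red points lie above both blue points, and for 2 of the 4 Rgs5 probe sets both lie below.

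Acta2, the alpha actin of smooth muscle and its standard marker, had 3 probe sets. The brightest, 1416454_s_at, had signals of 5708 and 6211 on the transgenic arrays, against 5114 and 5232 on the control arrays. Both transgenic arrays lay above both control arrays. The mean was 5960 ± 356 (SD, n = 2) in transgenic samples and 5173 in the control sample, a log2 change of 0.20 ± 0.10 (SE; limma adjusted p = 0.733). The 95% interval of the fold ran from 0.993 to 1.33. After quantile normalization the change was 0.06. Its suffix marks probes that can match more than 1 transcript, and the actins are close in sequence. The second Acta2 probe set was dim, with 29.0 and 54.7 on the transgenic arrays and 44.2 and 54.2 on the control arrays. These arrays overlapped, and the change of −0.20 ± 0.37 had the opposite sign (adjusted p = 0.966). The remaining one, at a mean signal of 20.2 in transgenic samples and 21.6 in control, was too dim to test.

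Actg2 encodes the gamma actin of visceral smooth muscle. Its 1 probe set had signals of 104 and 134 on the transgenic arrays, against 119 and 127 on the control arrays. The control values lay between the transgenic ones. The log2 change was −0.05 ± 0.23 (SE; limma adjusted p = 0.992), with a fold interval from 0.682 to 1.36.

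Myh11, the smooth muscle myosin heavy chain and the motor of contraction, had 2 probe sets that share 1 representative sequence in the annotation. The bright one, 1448962_at, had signals of 881 and 688 on the transgenic arrays, against 779 and 821 on the control arrays. The control values again lay between the transgenic ones. Its change was −0.04 ± 0.15 (log2, SE; limma adjusted p = 0.99), and the fold interval of 0.778 to 1.22 was the narrowest among the tested probe sets whose arrays overlapped. The other, at 14.5 and 3.85 on transgenic arrays and 36.6 and 24.3 on control arrays, was below the filter and not tested. Both its transgenic values were lower, at a level where signals are uncertain.

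Tagln encodes transgelin, an actin-binding protein also called SM22 alpha and an early marker of the smooth muscle program. Signals of its 1 probe set, 1423505_at, were 1540.2 and 1537 on the transgenic arrays, against 1235 and 1321 on the control arrays. The transgenic arrays were nearly equal and lay above both control arrays. Tagln averaged 1538 ± 2.60 (SD, n = 2) in transgenic samples and 1278 in control, a log2 change of 0.27 ± 0.10 (SE). Its fold interval was 1.02 to 1.41, the unadjusted p was 0.0273 and the limma adjusted p was 0.633, so the change did not pass. In every setting tried, the log2 change of Tagln was between 0.20 and 0.31.

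Cnn1 and Smtn encode proteins that bind the thin filament, calponin 1, which restrains actin-activated myosin, and smoothelin, found in contractile cells. Cnn1 had signals of 47.6 and 31.4 on the transgenic arrays, against 34.8 and 62.6 on the control arrays. The control arrays, which are technical replicates, were 0.63 apart on the log2 scale, more than the change of −0.20 ± 0.35 (limma adjusted p = 0.966). Smtn had signals of 200.6 and 201.5 on the transgenic arrays, against 214 and 166 on the control arrays. The transgenic values lay between the control values, and the change was 0.09 ± 0.17 (limma adjusted p = 0.971).

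Des encodes desmin, the muscle intermediate filament, which skeletal muscle also makes. Its brighter probe set had signals of 113 and 103 on the transgenic arrays, against 127 and 65.9 on the control arrays. Control array 2 was 0.81 below control array 1 on the log2 scale, the widest gap between control arrays among the tested members. The change was 0.19 ± 0.23 (log2, SE; limma adjusted p = 0.941), and it was −0.21 against control array 1 alone. Its dimmer probe set, which shares the same representative sequence, had mean signals of 26.1 in transgenic samples and 30.1 in control and was not tested.

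Myocd, which encodes myocardin itself, and Lmod1, a leiomodin that starts actin filaments in smooth muscle, were near the filter level. The tested Myocd probe set had signals of 30.3 and 24.5 on the transgenic arrays, against 24.7 and 46.1 on the control arrays. Lmod1 had signals of 41.9 and 16.8 on the transgenic arrays, against 34.0 and 31.6 on the control arrays. Both sets of arrays overlapped, with changes of −0.22 ± 0.38 for Myocd and −0.16 ± 0.43 for Lmod1 (log2, SE; limma adjusted p = 0.966 and 0.981). The fold interval of Lmod1, from 0.462 to 1.72, was the widest of the members. The second Myocd probe set was untested, with mean signals of 5.84 in transgenic samples and 11.4 in control.

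Rgs5 differs from the other members in kind. It encodes a regulator of G protein signalling that shortens the response to vasoconstrictors, and it is a marker of pericytes and of arterial smooth muscle. All 4 of its probe sets were tested. On the brightest, 1417466_at, signals were 751 and 774 on the transgenic arrays, against 1033 and 990.5 on the control arrays. The arrays did not overlap, and the gap between groups was several times the gap within either. Rgs5 averaged 763 ± 16.3 (SD, n = 2) in transgenic samples and 1012 in control, a log2 change of −0.40 ± 0.12 (SE), with a fold interval from 0.635 to 0.903. The unadjusted p was 0.00508 and the limma adjusted p was 0.419, the lowest of the 14 member probe sets, so the change did not pass.

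The other Rgs5 probe sets share 1 representative sequence and are not independent of each other. The suffix of 1420942_s_at, like that of the brightest Acta2 probe set, marks probes that can match more than 1 transcript. On 1420942_s_at the signals were 357 and 339 on the transgenic arrays, against 443 and 416 on the control arrays, again without overlap and with a change of −0.29 ± 0.14 (log2, SE; limma adjusted p = 0.736). On 1420941_at they were 563 and 801 on transgenic arrays, against 709 and 944 on control arrays. Array 2 of each group was the higher one there, the arrays overlapped, and the change was −0.28 ± 0.17 (adjusted p = 0.822). The last probe set, 1420940_x_at, carries the suffix for probes that may bind unrelated transcripts. Its change was the smallest, at −0.10 ± 0.18 (adjusted p = 0.966), with signals of 191 and 231 on transgenic arrays and 185 and 276 on control arrays. On these last 2 probe sets the control arrays differed from each other by 0.40 and 0.54 on the log2 scale, more than the groups did. In each of the settings tried, the change of the brightest probe set or of the mean over the 4 was below 0, between −0.43 and −0.27.

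**Figure D2:**
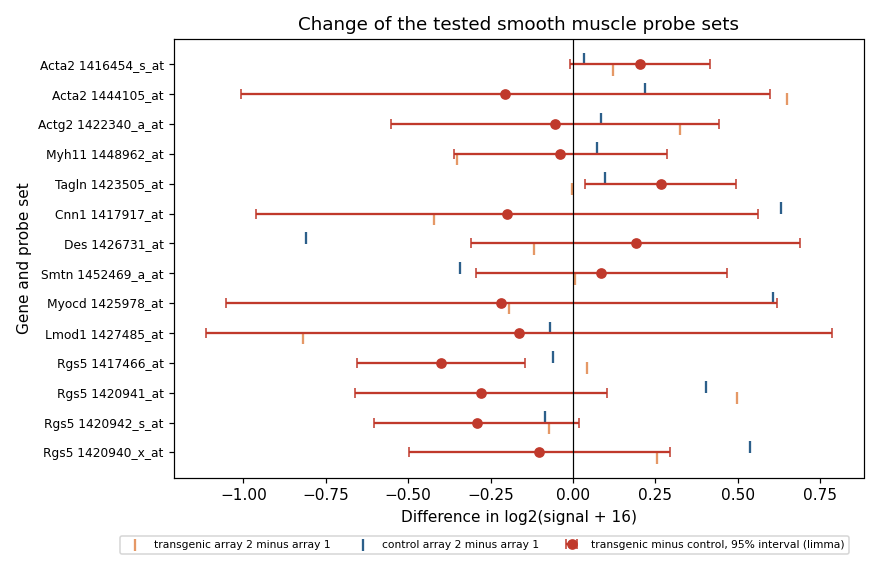
Difference in log2(signal + 16) between transgenic and control for the 14 tested member probe sets (red points, with 95% limma intervals), beside the difference between the transgenic arrays (orange ticks) and between the control arrays (blue ticks). The interval lies above 0 for Tagln and below 0 for the brightest Rgs5 probe set, before adjustment over 27022 probe sets; for 9 of the 14, among them 2 Rgs5 probe sets, the control arrays differ from each other by more than the groups do.

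Taking each gene by its brightest tested probe set, 4 of 10 members lay above 0 and 6 below, with a median log2 change of −0.05. Over all 12722 genes tested the median was −0.01, and 48.1% lay above 0. Over the same 10 probe sets, the median was 0.11 with transgenic array 1 alone and −0.06 with transgenic array 2 alone, so its sign depended on the array. Both transgenic arrays lay above both control arrays on 2 of 14 probe sets, or 14.3%, against 21.1% of all probe sets tested. They lay below on 2 of 14, or 14.3%, against 23.6% of all. The difference of these shares from the background was not tested.

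Other genes of smooth muscle contraction and its control were taken from 6 lists. Of 63 genes, 56 had a probe set and 48 were tested. None passed in limma (0 of 48), with 3 higher and 4 lower at an unadjusted p under 0.05, or 14.6% against 7.06% of all probe sets tested. That difference in share was not tested, and the 2 shares are of unlike sets. The 14.6% counts genes by their brightest tested probe set, and the 7.06% counts every tested probe set, dimmer ones included. In all, 23 lay above 0 and 25 below, with a median of −0.01. The lowest adjusted p was 0.278, for Myl9.

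Myl9 encodes the regulatory light chain of smooth muscle myosin, the substrate of the contraction kinase. Its signals were 3577 and 3299 on the transgenic arrays, against 2487 and 2577 on the control arrays. The arrays did not overlap, and the log2 change was 0.44 ± 0.10 (SE; limma adjusted p = 0.278). With all 4 arrays as separate samples, technical replicates included, it passed (adjusted p = 0.0383). In the same list of 9 tested genes, the phosphatase subunit Ppp1r12b stood at −0.38, the essential light chain Myl6 at −0.35 and the kinase Mylk at −0.21, or −0.39 as the mean over its 3 tested probe sets. For both Myl6 and Mylk the arrays overlapped. Myl6 had signals of 228 and 152 on transgenic and 263 and 221 on control arrays. With transgenic array 1 alone Myl6 stood at −0.08. Mylk had signals of 1359 and 1811 on transgenic and 1623 and 2026 on control arrays. The list's median was −0.02, with 3 above 0 and 6 below.

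Among 17 tested genes of thin filaments, dense bodies and intermediate filaments, 10 lay above 0 and 7 below, with a median of 0.04. Tpm1, a tropomyosin of smooth and striated muscle, had signals of 1591 and 1491 on the transgenic arrays, against 1144 and 1259 on the control arrays. Its change was 0.36 ± 0.11 (SE; limma adjusted p = 0.452), and 0.16 as the mean over its 4 tested probe sets. Pdlim3, a protein that binds alpha-actinin in muscle, stood at 0.36. On the lower side were Flna, which encodes the actin crosslinker filamin A, at −0.28 ± 0.11 and Vcl, which encodes vinculin of membrane attachments, at −0.27 ± 0.11 (log2, SE). Flna had signals of 818 and 810.3 on the transgenic arrays, against 1004 and 987 on the control arrays. The mean over the 2 tested Vcl probe sets was −0.09, since the dimmer one stood at 0.09. On the named probe sets both genes had arrays without overlap and did not pass (limma adjusted p = 0.644 and 0.655).

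The list of serum response factor and its partners had 3 of 9 tested genes above 0 and 6 below, with a median of −0.05. Klf4, a factor that represses smooth muscle genes and is also strong in surface epithelia, had signals of 3403 and 2674 on the transgenic arrays, against 3944 and 3817 on the control arrays. Its change was −0.36 ± 0.13 (log2, SE; limma adjusted p = 0.583). Elk1, which competes with myocardin for serum response factor, stood at −0.63 on a dim probe set, Fhl2 at −0.31 (0.03 with transgenic array 2 alone) and Foxo4 at 0.32, none past the threshold (limma adjusted p between 0.805 and 0.933).

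For calcium control, 4 of 8 listed genes were tested, with 1 above 0, 3 below and a median of −0.12. Pln, which encodes phospholamban and is also made in slow striated muscle, stood at 0.53. The mean over its 3 tested probe sets was 0.39. The calcium pumps Atp2b1 and Atp2a2 stood at −0.33 and −0.13, and the potassium channel Kcnma1 at −0.12. Of 12 listed receptors and guanylate cyclase subunits 6 were tested, with 4 above 0, 2 below and a median of 0.06. They included the thromboxane receptor Tbxa2r at −0.60, the cyclase subunits Gucy1b3 at −0.31 and Gucy1a3 at 0.19, and the prostaglandin receptor Ptgfr at 0.17. Tbxa2r was dim, with signals of 47.4 and 39.7 on the transgenic arrays, against 75.8 and 72.9 on the control arrays (limma adjusted p = 0.758). Of the other small RGS genes, relatives of Rgs5, 3 were tested. Rgs2, which also limits vasoconstrictor signals, had signals of 335 and 317 on the transgenic arrays, against 268 and 257 on the control arrays, a change of 0.30 ± 0.15 (log2, SE; limma adjusted p = 0.763). Rgs4 stood at −0.35 ± 0.34 (log2, SE) on a dim probe set. Rgs3 stood at 0.18, which turned to −0.04 as the mean over its 3 tested probe sets.

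**Figure D3:**
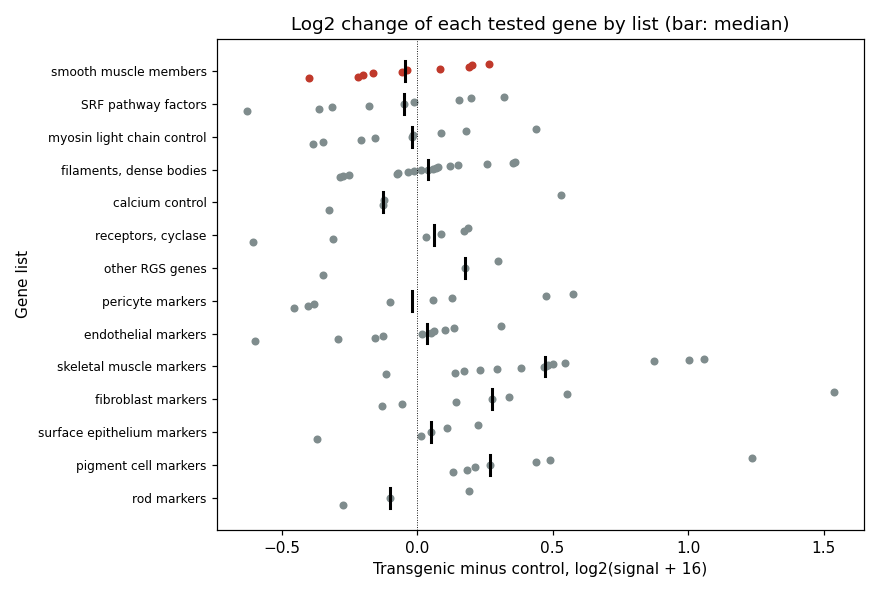
Log2 change, transgenic minus control in log2(signal + 16), of each tested gene in the smooth muscle list (red), the 6 related lists and 7 marker lists of other cells (grey), with each list's median as a bar. The smooth muscle members spread on both sides of 0 around a median of −0.05. Of the skeletal muscle markers 13 of 14 lie above 0, against 48.1% of all genes tested. The lists were chosen with earlier results of these data known.

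Markers of other cells that carry these genes were followed on the same arrays. Pericyte markers, set beside Rgs5, had a summed signal of 947 and 888 on the transgenic arrays, against 1106 and 1096 on the control arrays, over 9 genes. Both sums were lower, at 0.861 and 0.806 of the control mean. Notch3, a receptor of mural cells, stood at −0.40 ± 0.14 and Abcc9, a subunit of their potassium channel, at −0.38 ± 0.17 (log2, SE; limma adjusted p = 0.547 and 0.681), each without overlap. Anpep, which was dim, stood at −0.45 ± 0.32 (log2, SE; limma adjusted p = 0.85). Its transgenic array 1 was barely below control array 1, at 69.2 against 69.9. In the other direction, Cox4i2 stood at 0.57 ± 0.33, without overlap, and Cspg4 at 0.48 ± 0.38, both dim (adjusted p = 0.800 and 0.880). Notch3 and Abcc9 make up most of the difference between the sums. Of 8 tested pericyte markers 4 lay above 0 and 4 below, with a median of −0.02, and 2 averaged over 150. Endothelial markers, which line the same vessels, summed to 1302 and 1184 on the transgenic arrays, against 1270 and 1250.2 on the control arrays. These overlapped, with a median change of 0.04 over 10 tested genes. The part of the pericyte markers in the Rgs5 values was not tested.

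Of the skeletal muscle markers, set beside Tagln, Acta2, Myl9 and Tpm1, 12 of 14 were higher on both transgenic arrays and 1, Myh4 at −0.12, was lower on both. Over all probe sets tested, 21.1% were higher on both and 23.6% were lower on both. The summed signal of the 14 markers was 25788 and 25792 on the transgenic arrays, against 16750 and 16986 on the control arrays. That was 1.53 times the control mean on each transgenic array. In limma, 3 of the 14 rose past the threshold, namely Myl1 at 1.00, Mylpf at 0.87 and Mb at 1.06, and 13 of 14 lay above 0. Over all tested, 0.0777% of probe sets passed in either direction and 48.1% of genes lay above 0. The skeletal muscle list was chosen with earlier results of these data known, and each gene stands for its brightest tested probe set. Shares over all probe sets also cover dimmer ones. The differences from these shares were not tested. The arrays overlapped for desmin, which both kinds of muscle make. Its control array 2 was 0.81 below control array 1 (log2), so it cannot show whether desmin shifted with these markers. Fibroblast markers summed to 1.30 and 1.31 of the control mean and pigment cell markers to 1.14 and 1.23, whereas the 10 smooth muscle members summed to 1.07 and 1.11, with Acta2 as the largest term. The rise of Acta2, from 5173 in control to 5960 in transgenic samples, makes up most of the members' difference. Its log2 change of 0.20 was 0.06 after quantile normalization. All these sums use signals as deposited, and bright genes weigh most in them. No marker list had a summed level of 0 on any array. Probe sets for poly-A spike-in controls, bacterial transcripts designed to be added to an RNA during preparation, shifted by a median of 0.24 (log2). Of these 27 probe sets, 18 were higher on both transgenic arrays, against 21.1% of all probe sets tested. Several of the 27 probe the same transcript and are not independent. They were not among the tested probe sets and were not filtered by signal. The part of these shifts in the Tagln and Acta2 values was not tested.

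**Figure D4:**
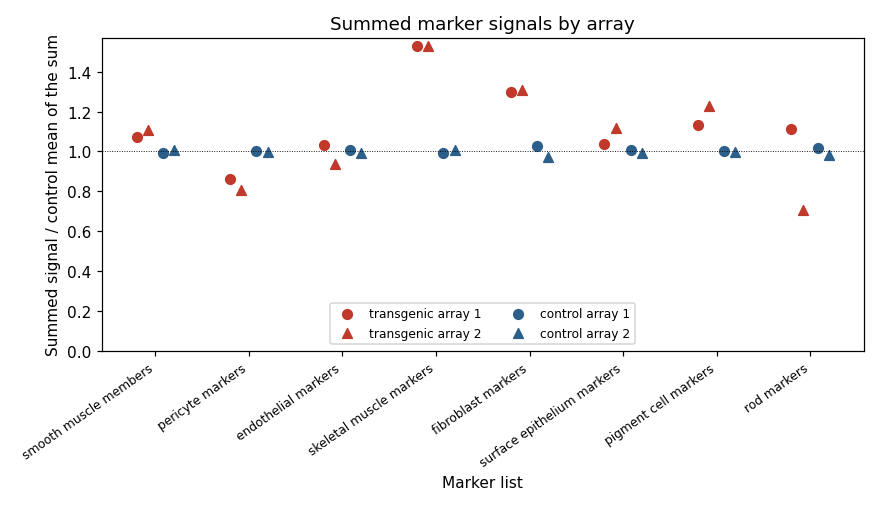
Summed signal of each marker list (brightest probe set of each gene) divided by the mean of the control arrays, with transgenic arrays in red, control arrays in blue, array 1 as circles and array 2 as triangles. Skeletal muscle markers stand at 1.53 on both transgenic arrays, smooth muscle members at 1.07 and 1.11, and pericyte markers at 0.861 and 0.806. The sums use signals as deposited, and bright genes weigh most in them.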

How the data were processed

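The values deposited by the authors are linear signal intensities, 1 per probe set and array. The software, its settings and a genome build are not given in the sources used here. Of 45101 probe sets, 64 array controls were left out. Names came from the platform annotation, where 34945 other probe sets had 1 symbol, 932 had several and 9160 had none, and 0 symbols changed when updated through gene identifiers. Intensities were used as deposited and transformed as log2(signal + 16). Probe sets with a mean above the 40th percentile, a signal of about 30.0, were tested (27022). The log2 values of the control arrays were averaged. The two-sided fit used limma 3.58.1 in R 4.3.3, with a variance prior that follows the intensity, and p-values adjusted by Benjamini-Hochberg over all tested probe sets (threshold 0.05). It had 1 residual and 10.3 prior degrees of freedom, and it takes the spread of the 1 control sample to equal that of the transgenic ones. Precision is limited by the few arrays. Each gene stands for its brightest tested probe set. All members are named, and from each related list the 4 (or fewer) that changed most in either direction. Other marker genes were named after their values were seen. The members and lists were chosen with earlier results of these data known. The fit was tested on simulated data.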

Additional observations from a re-analysis of the deposited data

How the results depend on the processing

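The count of 21 probe sets past the threshold over the whole table was 39 after quantile normalization, 56 after median centring, 135 with 4 arrays as separate samples, and 0 without the filter (2181 at an unadjusted p under 0.05 in limma) or with a prior that ignores the intensity (1059). Leaving out a control array gave 34 to 42. Without a transgenic array no test was possible. No member passed in limma in any of these settings (0), with 0 to 4 at an unadjusted p under 0.05. With 4 arrays as separate samples, 4 of 14 member probe sets had an unadjusted p under 0.05 in limma, against 3666 of 27022 tested. With the 4 arrays fitted with the replicate number as a block (replicate block), 1740 of the 27022 probe sets passed. Among the 14 member probe sets, 4 passed there. They were Rgs5 on 2 probe sets (adjusted p = 0.000933 and 0.0329), Acta2 (0.00947) and Tagln (0.0123). Of the related genes named, Myl9, Klf4, Tpm1, Atp2b1, Vcl, Flna and Mylk also passed there, and Myl9 with 4 separate arrays. The replicate block fit treats technical control replicates as samples, and the labels link the same-numbered arrays by their number alone. Whether those arrays shared a step of processing is not stated. Between the groups, the differences of array 2 from array 1 correlated at 0.0955 over the tested probe sets. The median of the member genes was 0.086 at the 60th percentile filter, which left 7 members, and, over the same 10 probe sets, between −0.086 and 0.11 when 1 array was left out, with 0.11 without transgenic array 2. Against control array 1 alone, the changes of Cnn1, Des, Smtn and Myocd changed sign. With 1 transgenic array, those of Actg2, Myh11, Cnn1 and Lmod1 did for one of the arrays. The change of Fhl2 changed sign with transgenic array 2 alone. As the mean of its tested probe sets Acta2 stood at 0.00, and Rgs3 turned to −0.036. Dim signals near the filter limit what Cnn1, Myocd and Lmod1 can show.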
